A study of Mus musculus with 12 samples.

Results

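The oxysterol chemoattractant genes Gpr183, Ch25h, Cyp7b1 and Hsd3b7 encode a receptor and the enzymes that make and break down its ligand. These 4 genes, of 18194 genes named by the probe sets of the array, were chosen by name from the annotation, and their signals across these conditions were known when they were chosen. Their levels and differences are therefore a description, given without a test. They were measured by 7 probe sets in BV-2, an immortalised line of mouse microglia and thus 1 line without its brain environment. Cultures were kept for 24 h with 50 µM luteolin plus 50 ng/ml LPS, with 50 ng/ml LPS, with 50 µM luteolin, or without stimulation as control. Each of the 4 conditions had 3 arrays from independent RNAs, 12 arrays in all. Luteolin is a plant flavonoid that the study dissolved in DMSO, and LPS, from the wall of bacteria, is sensed through Toll-like receptor 4. For the joint treatment the methods name LPS a second time, so the sample labels, which give luteolin + LPS, were followed. The labels' extraction protocol names PUER cells, whereas their treatment protocol and the methods name BV-2.

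Oxysterols are oxidised forms of cholesterol. Ch25h, a cholesterol hydroxylase, adds a hydroxyl group to the side chain of cholesterol, and Cyp7b1, a cytochrome P450 enzyme, adds a further one to the sterol ring. The product is the ligand of Gpr183, also called EBI2, a G protein-coupled receptor through which B cells, dendritic cells and macrophages migrate toward the sterol, and Hsd3b7, a steroid dehydrogenase, takes the ligand out of action. In mouse macrophages Ch25h is known as a gene induced by LPS and by type I interferon.

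All intensities are on the linear scale, and a signal of 50 was the minimum for a gene to be read as measured. The array medians lay between 52.2 and 56.4, and 50.9% to 52.5% of the probe sets of an array reached 50. All 12 markers of microglia and macrophages had a probe set, and 8 of them were at 50 or more on every array, including Cd68 with 13177 to 18782 and Csf1r, the receptor for colony-stimulating factor, with 4828 to 9735. Of the other 4, Cx3cr1 and P2ry12 were each under 50 on 6 arrays, Tmem119 on 2 and Aif1 on 1. Of 4 measured B cell markers, Cd79b and Ms4a1 were under 50 on all arrays and 0 were at 50 or more on every array. The 4 summed to 149 to 161 in luteolin + LPS, 143 to 166 in LPS, 140 to 155 in luteolin and 146 to 148 in control arrays. Of 5 dendritic cell markers, 2 were at 50 or more on every array, and Xcr1 and Cd209a were under 50 on all.

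Of the members above the minimum, Gpr183 alone had groups that did not overlap. On its brighter probe set the 3 luteolin + LPS arrays had signals of 96.9, 79.5 and 87.6. The LPS arrays had 240.5, 151.7 and 112.5. The luteolin arrays had 594.4, 847.6 and 913.6, and the control arrays had 885.8, 774.1 and 804.3. All 6 arrays with LPS lay below all 6 arrays without it, and the highest signal was 11.5 times the lowest. The order of the geometric means ran from luteolin + LPS with 87.7 over LPS with 160.1 and luteolin with 772.1 to control with 820.1. Only luteolin and control, neighbours in this order, had overlapping arrays. In RNA from whole cultures, fewer cells with a transcript and less of it per cell cannot be told apart.

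**Figure D1:**
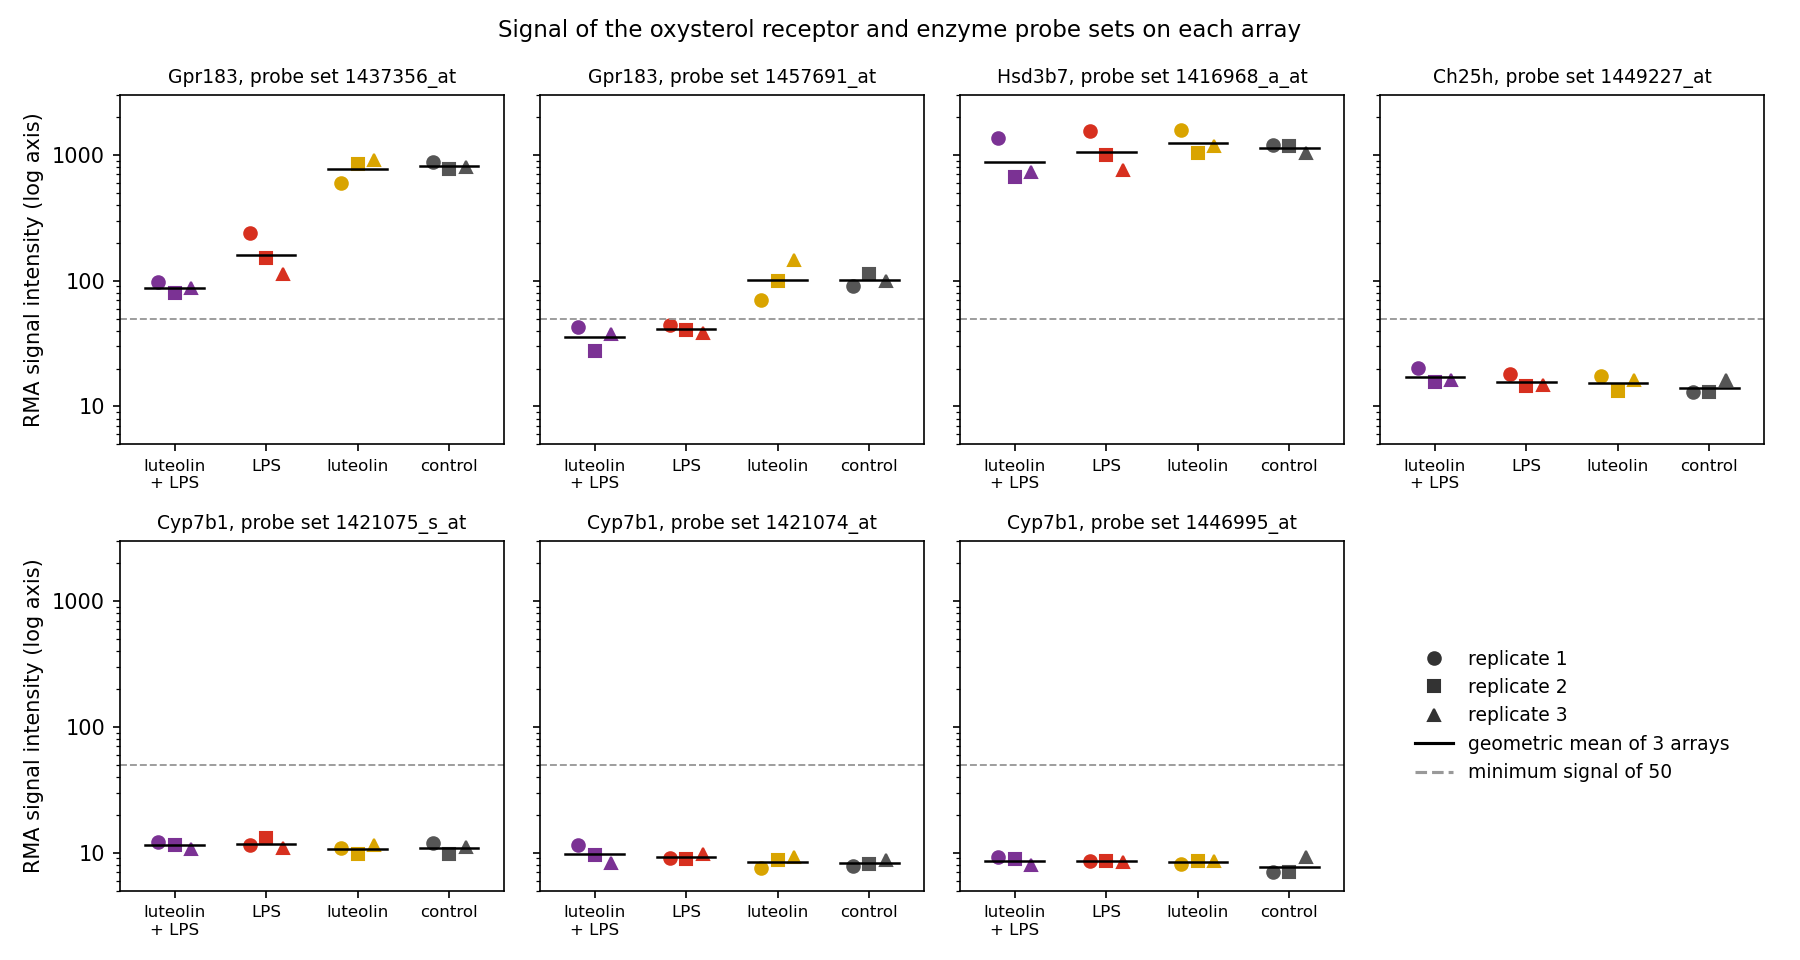
RMA signal intensity (log axis) of the 7 probe sets of Gpr183, Hsd3b7, Ch25h and Cyp7b1 on each of 12 arrays, by condition, with a symbol for each replicate number. The bar is the geometric mean of 3 arrays and the dashed line the minimum signal of 50. Both Gpr183 probe sets were lower on all arrays with LPS, and the Ch25h and Cyp7b1 probe sets stayed under 50 throughout.

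In LPS against control arrays, Gpr183 differed by a log2 of -2.36 (standard error of the limma fit 0.25, n = 3 each), a signal 5.12-fold lower and 19.5% of control. Within replicates 1, 2 and 3 the log2 difference was -1.88, -2.35 and -2.84, lower in 3 of 3. Averaged over the gene's probe sets it was -1.83. Of all 12071 genes tested, 2.22% were lower at an adjusted p under 0.05 and 1.96% higher in this comparison, and with the replicate number as a block 6.78% and 4.30%. These shares are background only, and no call is read for a member.

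Luteolin alone left no common direction. In luteolin against control arrays the log2 difference of Gpr183 was -0.09 (standard error 0.25), with -0.58 in replicate 1, 0.13 in replicate 2 and 0.18 in replicate 3. The groups overlapped. Limma called 0% of all genes here, with 1097 genes at an unadjusted p under 0.05, and 0.282% with the replicate block.

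With both agents, the signal was below that with LPS alone in each replicate. In luteolin + LPS against LPS arrays the log2 difference was -0.87 (standard error 0.25), or 54.8% of the LPS signal, with -1.31, -0.93 and -0.36 in replicates 1, 2 and 3. The groups did not overlap, although the highest luteolin + LPS array, 96.9, lay close to the lowest LPS array, 112.5. With 3 arrays a group this was not particular to Gpr183. The sterol carrier Scp2 also had no overlap here, with a log2 difference of 0.33 (limma adjusted p = 0.141). The share of all genes without overlap is not given. In this comparison 0.356% of all genes were lower and 0.149% higher, and 2.84% and 1.95% with the replicate block. The log2 difference was -0.57 without LPS replicate 1 and -1.12 without LPS replicate 3. Averaged over the gene's probe sets it was -0.54, where the dimmer probe set was under 50 on all arrays of both groups.

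In luteolin + LPS against luteolin arrays, Gpr183 differed by a log2 of -3.14 (standard error 0.25), an 8.80-fold lower signal, and by -2.32 averaged over its probe sets. The differences within replicates were -2.62, -3.41 and -3.38. Of all genes, 1.81% were past the threshold in either direction, or 4.59% with the block. The difference with LPS was thus measured on 2 backgrounds, and the interaction, that with luteolin minus that without, was -0.78 (standard error 0.35), with -0.74, -1.06 and -0.54 in the replicates. For the interaction limma called 0% of all genes without and 0% with the block, with 380 and 798 genes at an unadjusted p under 0.05.

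**Figure D2:**
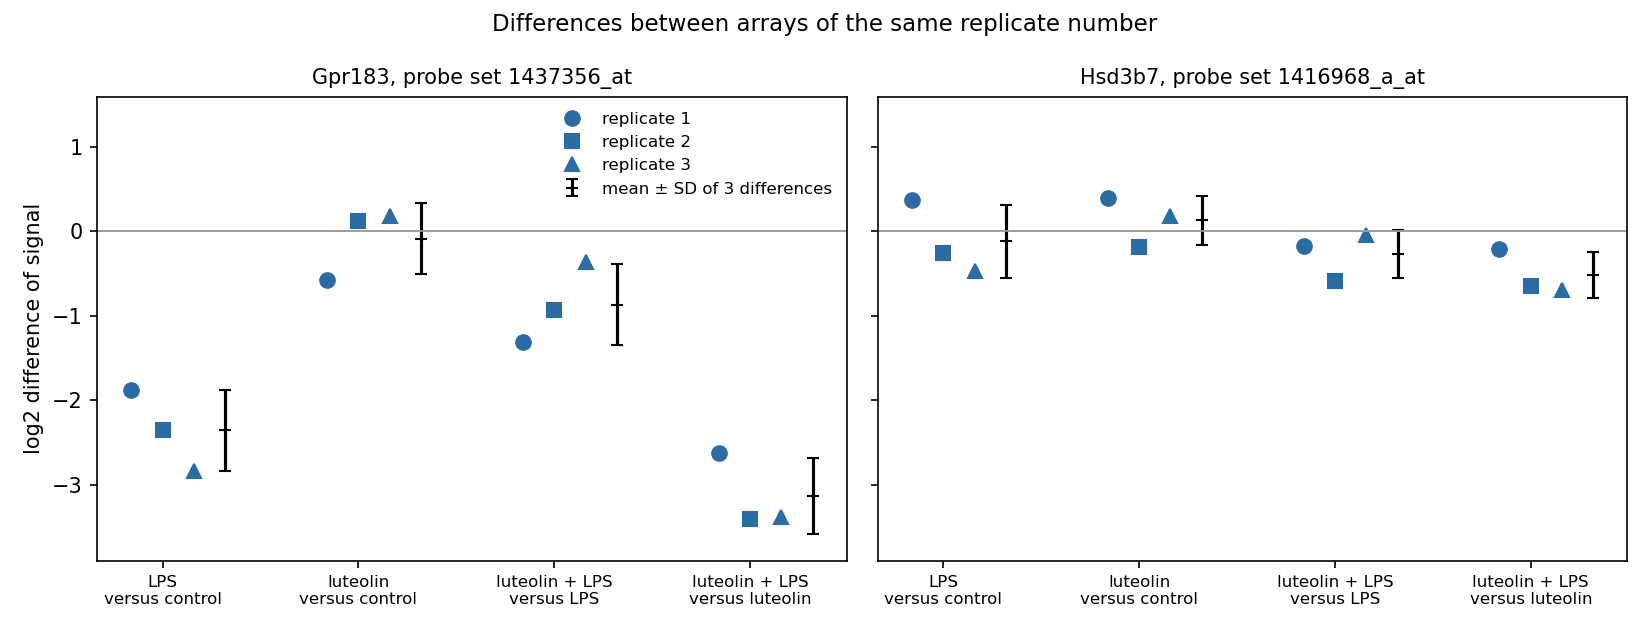
Log2 difference of signal between arrays of the same replicate number for Gpr183 (left) and Hsd3b7 (right) in 4 comparisons. Symbols are the 3 replicates and the bars their mean ± SD. The Gpr183 differences in LPS against control and in luteolin + LPS against luteolin lie between -3.41 and -1.88, and the Hsd3b7 differences between -0.69 and 0.40.

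A further probe set of Gpr183 was dimmer. It had 42.6, 27.8 and 37.9 in luteolin + LPS arrays, 44.4, 40.5 and 38.2 in LPS arrays, 70.3, 99.2 and 146.6 in luteolin arrays and 90.2, 113.4 and 100.3 in control arrays. All 6 arrays with LPS were under the minimum of 50 and all 6 without LPS above it, so only a bound can be given. With values under 50 set to 50, LPS was lower than control by a log2 of at least 1.01, and luteolin + LPS was lower than luteolin by at least 1.01. The measured log2 difference was -1.30 in LPS against control. Luteolin + LPS and LPS were both below the minimum on this probe set, and their order there is not read.

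The enzymes that make the ligand had no signal above the minimum. Ch25h, the first enzyme, had 20.04, 15.51 and 16.29 in luteolin + LPS arrays, 18.24, 14.46 and 14.76 in LPS arrays, 17.31, 13.16 and 16.34 in luteolin arrays and 13.11, 13.03 and 16.29 in control arrays. These 12 values all lay under 50 and the groups overlapped, so no fold is given. Cyp7b1, the enzyme of the ring hydroxylation, had 3 probe sets, and all of their values lay between 7.05 and 13.1. Neither enzyme passed the filter on low values, and a transcript below the minimum signal was not detectable in these arrays, which is not the same as absent.

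Hsd3b7, the enzyme that inactivates the ligand, was above the minimum on every array. Its probe set had 1375, 663.0 and 732.5 in luteolin + LPS arrays, 1546, 995.3 and 754.9 in LPS arrays, 1588, 1042 and 1180 in luteolin arrays and 1200, 1180 and 1044 in control arrays. All 4 groups overlapped, and replicate 1 was the highest array in each of them. The log2 difference was -0.12 in LPS against control (standard error 0.31), 0.13 in luteolin against control, -0.27 in luteolin + LPS against LPS and -0.52 in luteolin + LPS against luteolin. In the last 2 of these comparisons, Hsd3b7 was lower in 3 of 3 replicates, by a log2 of 0.04 to 0.59 and of 0.21 to 0.69. Its interaction was -0.40 (standard error 0.43), with -0.57, -0.41 and -0.22 in replicates 1, 2 and 3. The order of the geometric means was luteolin + LPS 874.1, LPS 1051, control 1139 and luteolin 1250, and no neighbours in it differed beyond the spread of their arrays.

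The bases before the starts of Gpr183 and of Ch25h, an enzyme under the minimum, are shown. The reason is that both genes are known in other cells to respond to immune stimuli. RefSeq promoters of GRCm38.p6 were matched for 3 of the 4 members, with Cyp7b1 the exception. The stretches cover 250 bases upstream of the start, 5′ to 3′ on the minus strand that both genes lie on, at chr14:121965194-121965443 for Gpr183 and chr19:34475149-34475398 for Ch25h, and capitals mark matches to any of 6 motifs searched on both strands.
Gpr183: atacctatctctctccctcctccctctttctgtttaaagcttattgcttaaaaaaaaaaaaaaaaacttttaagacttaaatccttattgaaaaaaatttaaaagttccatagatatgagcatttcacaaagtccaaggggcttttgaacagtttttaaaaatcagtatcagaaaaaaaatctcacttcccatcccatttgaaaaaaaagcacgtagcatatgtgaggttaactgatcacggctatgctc
Ch25h: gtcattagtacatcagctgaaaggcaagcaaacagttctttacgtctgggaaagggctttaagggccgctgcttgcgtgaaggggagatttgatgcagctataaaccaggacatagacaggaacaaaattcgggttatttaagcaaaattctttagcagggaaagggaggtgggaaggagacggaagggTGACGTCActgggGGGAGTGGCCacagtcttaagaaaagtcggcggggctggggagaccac
The motifs were TGACGTCA, the cyclic AMP response element, TGANTCA, bound by AP-1, GGGNNNNNCC, bound by NFkB, GAAANNGAAA, the interferon-stimulated response element, TTCNNNGAA, the gamma-activated site, and GAGGAA, bound by PU.1. The Gpr183 stretch held none of them. The Hsd3b7 stretch, not printed, held overlapping NFkB matches at bases -190 to -181 and -189 to -180 and TTCCTGGAA, a match to the gamma-activated site, at bases -21 to -13. The Ch25h stretch held TGACGTCA at bases -61 to -54 from the start, a motif in 1.55% of 32851 promoters of the same length, and GGGAGTGGCC at bases -48 to -39, a match to the NFkB motif that 45.8% of them held. The other motifs were in 6.75% (AP-1), 2.98% (interferon-stimulated response element), 7.02% (gamma-activated site) and 23.3% (PU.1) of the promoters. A match is only a run of letters, and its absence from this window says nothing about a factor.

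Genes around these 4 were taken from 8 lists covering sterol metabolism, chemoattractant receptors and their signalling, and the LPS and interferon response. The lists had 166 entries, of which 149 were on the array and 131 were tested. In LPS against control, 25 of the 131 passed the threshold, or 44 when the replicate number was a block. Over all genes tested, 4.18% passed in this comparison, and 11.1% with the block. Leaving out control replicate 1, 2 or 3 left 13, 10 and 11, and 10 passed without LPS replicate 3, and 39 and 38 without luteolin + LPS replicate 1 or 2. Between luteolin + LPS and luteolin 7 passed, with Cyp27a1, Apoe and Lpar6 lower and Ccrl2, Gpr84, Cd14 and Cxcl10 higher. Over all genes 1.81% passed there, and 4.59% with the block. The list count was 17 with the block, 21 without luteolin + LPS replicate 2, 3 without luteolin replicate 1 or 2 and 0 without luteolin replicate 3. Between luteolin + LPS and LPS, limma called 0 of the 131, with 25 at an unadjusted p under 0.05, and 5 with the block. The list count there was 7 without luteolin + LPS replicate 1 and 1 without LPS replicate 1 or luteolin + LPS replicate 3. Over all genes 0.356% were lower and 0.149% higher there, and 2.84% and 1.95% with the block. In luteolin against control limma called 0 of the 131 with or without the block, with 17 at an unadjusted p under 0.05. Over all genes 0% passed there, and 0.282% with the block.

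Among enzymes of other oxysterols and bile acids, Cyp27a1, the mitochondrial sterol hydroxylase, fell in LPS-treated cells. It had 822.9, 895.9 and 720.8 in LPS arrays against 1440, 1281 and 1285 in control arrays, and the groups did not overlap. The log2 difference was -0.72 (standard error 0.15, limma adjusted p = 0.0212). It was also lower in luteolin + LPS, with 823.8, 573.7 and 752.5, against 1418, 1239 and 1314 in luteolin arrays (log2 difference -0.90, limma adjusted p = 0.0117). Of this list's 16 genes, 8 passed the filter on low values, and in LPS against control 1 fell, none rose and 7 did not pass, with a median log2 difference of -0.39 against -0.04 over all genes tested. The 1 call was 12.5% of the 8 against 4.18% of all genes, and with the block 12.5% against 11.1%. None of the 8 passed in luteolin + LPS against LPS. The largest differences were those of Scp2, a sterol carrier, with a log2 difference of 0.33 (limma adjusted p = 0.141), and Hsd17b4, a peroxisomal enzyme, with one of 0.28 (limma adjusted p = 0.585).

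Of 21 tested proteins that bind or sense oxysterols, 1 rose and 1 fell in LPS against control, and 2 and 3 with the block, with a median log2 difference of -0.10 against -0.04 over all genes. These calls were 9.52% of the list against 4.18% of all genes, and with the block 23.8% against 11.1%. The oxysterol-binding proteins Osbp2 and Osbpl7 were the ones called without a block, with log2 differences of 0.91 (limma adjusted p = 0.0433) and -0.48 (limma adjusted p = 0.0391). Insig2, which holds the SREBP complex in the endoplasmic reticulum when oxysterols bind it, had 6751, 2011 and 2193 in LPS arrays against 1889, 1301 and 1129 in control arrays, and it passed with the block (limma adjusted p = 0.00953) and not without (0.178). In luteolin + LPS it had 2314, 1400 and 1421, a log2 difference of -0.90 from LPS, which passed with the block (limma adjusted p = 0.0425) and not without (0.384), and which was -0.34 without LPS replicate 1. Smo, the Hedgehog pathway transducer that oxysterols bind, had 149.1, 227.6 and 215.7 in LPS arrays against 309.8, 325.5 and 269.1 in control arrays, a log2 difference of -0.63 that passed with the block (limma adjusted p = 0.0183) and not without (0.0850). In luteolin + LPS arrays Smo had 269.4, 354.4 and 282.4, above all 3 LPS arrays, a log2 difference of 0.63 that likewise passed with the block (limma adjusted p = 0.0367) and not without (0.144). Osbpl3 had one of -1.11 in the same comparison (limma adjusted p = 0.264), with 2487, 510.7 and 1168 in luteolin + LPS arrays against 2194, 2860 and 2386 in LPS arrays, and it was -0.53 without luteolin + LPS replicate 2 and -0.38 averaged over its probe sets.

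Of the genes that move and make cholesterol, Apoe and Hmgcs1 fell with LPS. Apoe, the apolipoprotein of cholesterol efflux, had 3070, 4951 and 3608 in LPS arrays against 6155, 9477 and 8566 in control arrays (log2 difference -1.06, limma adjusted p = 0.0207). It was 1 of 10 efflux, esterification and uptake genes tested, of which no other passed in that comparison, and the list's median log2 difference was -0.21. Hmgcs1, an enzyme at the start of the mevalonate pathway, had 1681, 2009 and 1746 in LPS arrays against 2775, 3245 and 3265 in control arrays (log2 difference -0.77, limma adjusted p = 0.00774), the only 1 of 17 cholesterol synthesis genes to pass. As background, 4.18% of all genes passed in LPS against control, and 11.1% with the block. With the block Apoe and Hmgcs1 stayed the only calls of their lists. The share of calls in each list was thus above that of all genes without the block and below it with the block. Neither list had a gene past the threshold in luteolin + LPS against LPS without a block. Lipa, the lysosomal acid lipase, had a log2 difference of 0.95 there (limma adjusted p = 0.25, and 0.0330 with the block), Mylip, which marks the LDL receptor for degradation, 0.80 (0.188), and the synthesis enzymes Ebp 0.53 (0.132) and Mvd -0.48 (0.440).

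In LPS against control, 20 tested chemoattractant receptors of myeloid cells had a median log2 difference of 0.03, against -2.36 for Gpr183, and 10 of 20 were below 0. The highest was Ccrl2 with 3.96. Cxcr4, the CXCL12 receptor, had -1.81. Gpr34, a lysophospholipid receptor of microglia, was under 50 on all 6 arrays with LPS and on control replicate 1, with 24.2. With values under 50 set to 50 its log2 difference was -0.61. As a control array was raised as well, this is not a bound, and Gpr34 is not ranked against Gpr183. Of the 20, 2 rose, Ccrl2 and Gpr84, and 2 fell, S1pr1 and Lpar6. These calls were 20.0% of the list against 4.18% of all genes, and with the block 35.0% against 11.1%. Ccrl2, a chemerin-binding receptor, had 4473, 884.7 and 1143 in LPS arrays against 142.7, 83.7 and 101.2 in control arrays (log2 difference 3.96, limma adjusted p = 0.00374). Gpr84, a receptor for medium-chain fatty acids, differed by 2.19 (limma adjusted p = 0.0405). S1pr1, a sphingosine phosphate receptor, differed by -0.94 (limma adjusted p = 0.0364), and Lpar6, a lysophosphatidic acid receptor, by -0.91 (limma adjusted p = 0.0172). With the block Gpr34, Cxcr4 and P2ry13 were lower as well (limma adjusted p = 0.00806, 0.00861 and 0.0280).

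**Figure D3:**
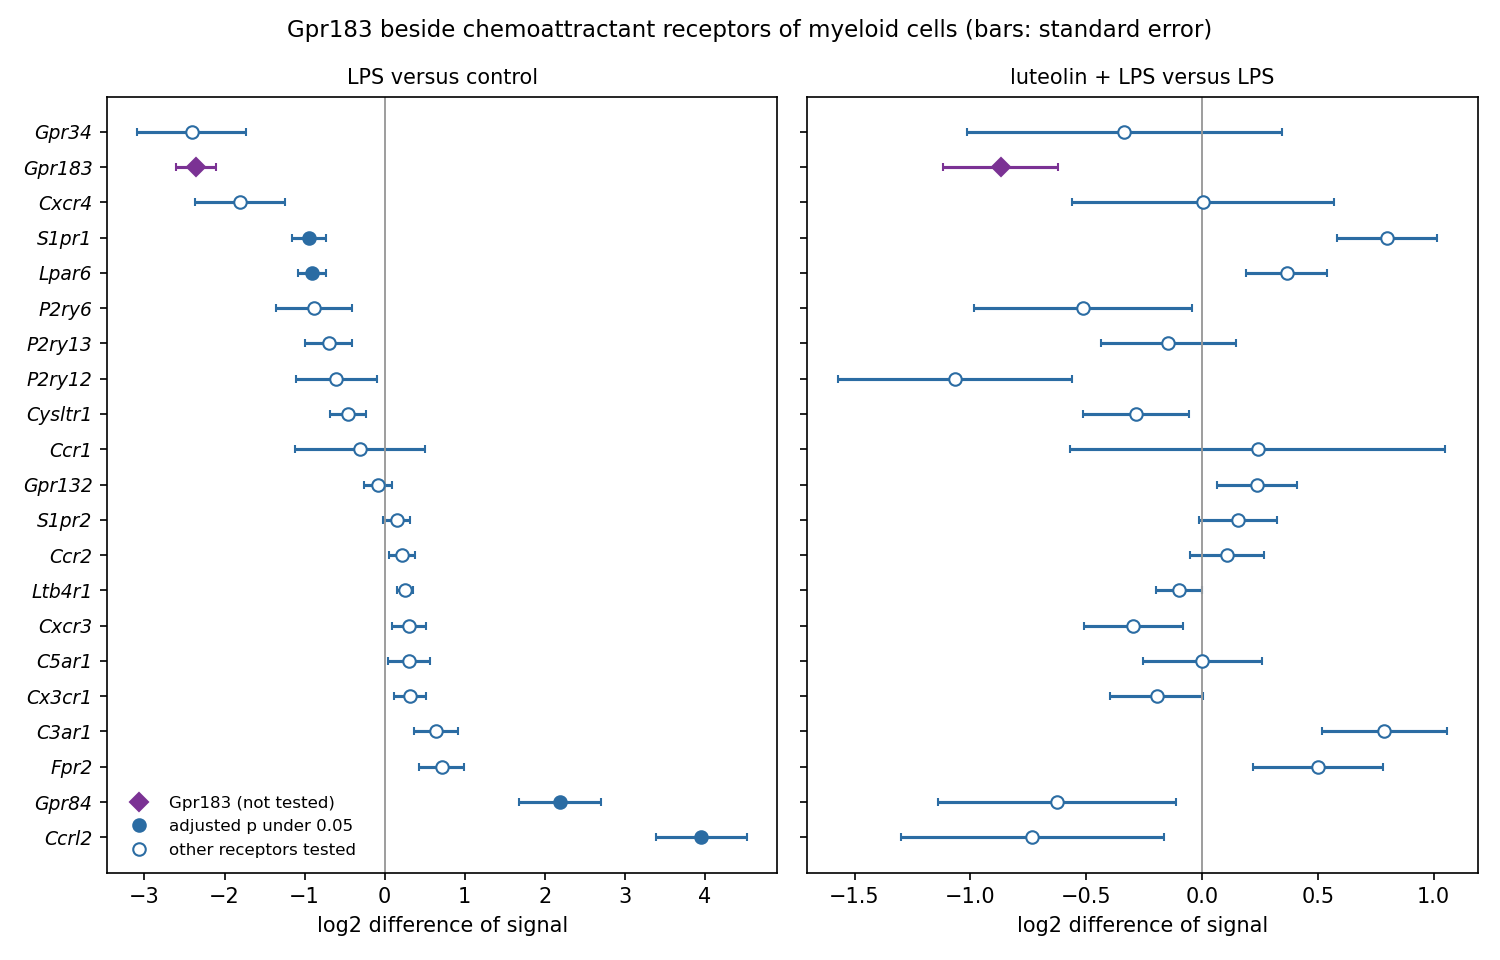
Log2 difference of signal with its standard error for Gpr183 (diamond) and 20 chemoattractant receptors, in LPS against control (left) and in luteolin + LPS against LPS (right), with rows in the order of the left panel. Filled circles passed an adjusted p of 0.05 without a block. Gpr183 has -2.36 on the left and -0.87 on the right. Gpr34 was under 50 on all arrays with LPS and P2ry12 on 6 of 12 arrays, so their plotted places rest on values that have no order.

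Between luteolin + LPS and LPS, 10 of the 20 receptors were below 0 and the median was -0.05, against -0.87 for Gpr183. This count includes receptors with arrays under 50. With values under 50 set to 50, Ccr1 went from 0.24 to -0.12 and Gpr34 from -0.335 to 0.0. P2ry12, the ADP receptor of resting microglia, had -1.07 (limma adjusted p = 0.357), with 6 of 12 arrays under 50 and -0.28 with these set to 50. S1pr1 lay the other way, with 192.3, 209.3 and 184.0 in luteolin + LPS arrays against 113.7, 97.7 and 126.7 in LPS arrays. Its log2 difference of 0.80 had a limma adjusted p of 0.119, and of 0.0392 with the block. In luteolin + LPS against luteolin, Cxcr4 had -2.46 and Gpr183 -3.14.

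Among 15 tested G protein subunits, receptor kinases, arrestins and RGS proteins, which carry or end the signal of such receptors, Arrb1 alone passed in LPS against control without a block. Arrb1, a beta-arrestin that uncouples receptors from G proteins, had 295.7, 264.6 and 186.7 in LPS arrays against 521.4, 533.8 and 497.6 in control arrays (log2 difference -1.08, limma adjusted p = 0.00306). With the block Rgs10, which speeds the shutdown of G proteins, was lower as well, with 664.1, 513.2 and 410.6 in LPS arrays against 1589, 956.9 and 961.1 in control arrays (log2 difference -1.13, limma adjusted p = 0.000944, and 0.0506 without the block). The list's median log2 difference was -0.18. Its share of calls was 6.67% against 4.18% of all genes, and with the block 13.3% against 11.1%. None passed in luteolin + LPS against LPS, and the largest differences were those of Rgs1, with 1870, 1588 and 4429 in luteolin + LPS arrays against 7374, 3963 and 5958 in LPS arrays (log2 difference -1.24, limma adjusted p = 0.135), and Rgs18 with -1.11 (limma adjusted p = 0.345), which had 3 of 12 arrays under 50, and which was -0.63 with these set to 50, -0.81 averaged over its probe sets and -0.60 without luteolin + LPS replicate 2.

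Some genes of LPS and interferon signalling, which is known to induce Ch25h in macrophages, rose on the same arrays. Of 14 tested genes of Toll-like receptor 4 and type I interferon signalling, Cd14, Irf9 and Atf3 rose in LPS against control, none fell and 11 did not pass. These calls were 21.4% of the list against 4.18% of all genes, and with the block 28.6% against 11.1%. Cd14, the LPS co-receptor, had 8430, 4735 and 5125 in LPS arrays against 1356, 1387 and 1080 in control arrays (log2 difference 2.22, limma adjusted p = 0.00120). Irf9, a subunit of the interferon-activated transcription factor, differed by 1.94 (limma adjusted p = 0.0431) and Atf3, a repressor induced by stress, by 1.06 (limma adjusted p = 0.0188). Of 26 interferon response genes, 12 rose and 14 did not pass, and 23 rose with the block, with a median log2 difference of 2.90. The calls were 46.2% of that list, and 88.5% with the block. The antiviral gene Rsad2 had 12190, 7843 and 12960 in LPS arrays against 103.0, 94.8 and 130.1 in control arrays (log2 difference 6.63, limma adjusted p = 0.0116). On their brightest probe sets, Rtp4, Ifit1 and Cmpk2 rose by at least 6.48, 4.85 and 4.85 with values under 50 set to 50 (limma adjusted p = 0.0182, 0.0232 and 0.0102 on these values). Averaged over its probe sets, with no value set to 50, Rtp4 rose by 4.53 (limma adjusted p = 0.0158). In the same 3 LPS arrays Ch25h had signals between 14.5 and 18.2. These come from 1 probe set, lie under 50 and have no order, and only 24 h was measured. Whether LPS changed Ch25h can therefore not be read from them.

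With luteolin + LPS the interferon response varied between arrays. The list's median, relative to the control mean, was 3.27, -0.23 and 1.10 in luteolin + LPS replicates 1, 2 and 3, and 4.24, 2.13 and 2.60 in LPS replicates 1, 2 and 3. Gpr183 had linear signals of 96.9, 79.5 and 87.6 in the same luteolin + LPS arrays, a narrower range (SD of the log2 values 0.14). These signals lay near the minimum of 50, so the narrower range is not read as a difference from the interferon genes. None of the 26 passed in luteolin + LPS against LPS without a block, with a median log2 difference of -1.86. Cmpk2 had one of -3.11 (limma adjusted p = 0.182) and Rsad2 one of -2.79 (limma adjusted p = 0.298), which were -1.69 and -1.06 without luteolin + LPS replicate 2. With the block the antiviral gene Mx1 passed (log2 difference -2.58, limma adjusted p = 0.0335, and 0.0897 without the block), although it was under 50 on 11 of 12 arrays, LPS replicate 1 with 317.4 being the exception, and with values under 50 set to 50 the difference was -0.89. Of the signalling genes, Stat2 had -1.02 (limma adjusted p = 0.487) and Irf9 -0.91 (0.399), which were -0.16 and -0.27 without luteolin + LPS replicate 2.

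Of these 17 genes named for LPS against control, 8 lost the call without control replicate 1, 10 without control replicate 2, 8 without control replicate 3 and 10 without LPS replicate 3, and 0 to 7 did so without 1 of the other 8 arrays. Ccrl2, Hmgcs1, Arrb1, Cd14, Rsad2 and Cmpk2 passed in all 21 alternatives, and the other 11 lost the call in 1 or more. Averaged over their probe sets, Cyp27a1 had a log2 difference of -0.36 (limma adjusted p = 0.0648) and Osbpl7 one of -0.10 (0.622).

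The 5 tested genes whose log2 values were most like those of Gpr183 over the 12 arrays were Phf8, Fbxw4, Slc26a11, Lrrc39 and Nfatc2, with a Pearson r of 0.969, 0.959, 0.955, 0.955 and 0.954. This r is a description over 12 arrays that share 4 conditions. Phf8, a histone demethylase, had geometric means of 318.0 in luteolin + LPS, 358.9 in LPS, 566.9 in luteolin and 592.9 in control. Nfatc2, a transcription factor of the calcineurin pathway, had 387.0, 431.8, 998.5 and 1095 in the same order. Fbxw4 had 474.8, 493.2, 1031 and 1176, Slc26a11 had 199.8, 198.1, 512.5 and 477.0, and Lrrc39 had 24.5, 31.8, 65.3 and 85.7. The 6 Lrrc39 arrays with LPS lay between 21.3 and 34.8, all under 50 and without an order, so its r is not read. The other 4 were lower in both groups with LPS than in both without, and over a smaller range than Gpr183. The genes most like Ch25h are not given, as all its values were under the minimum.

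**Figure D4:**
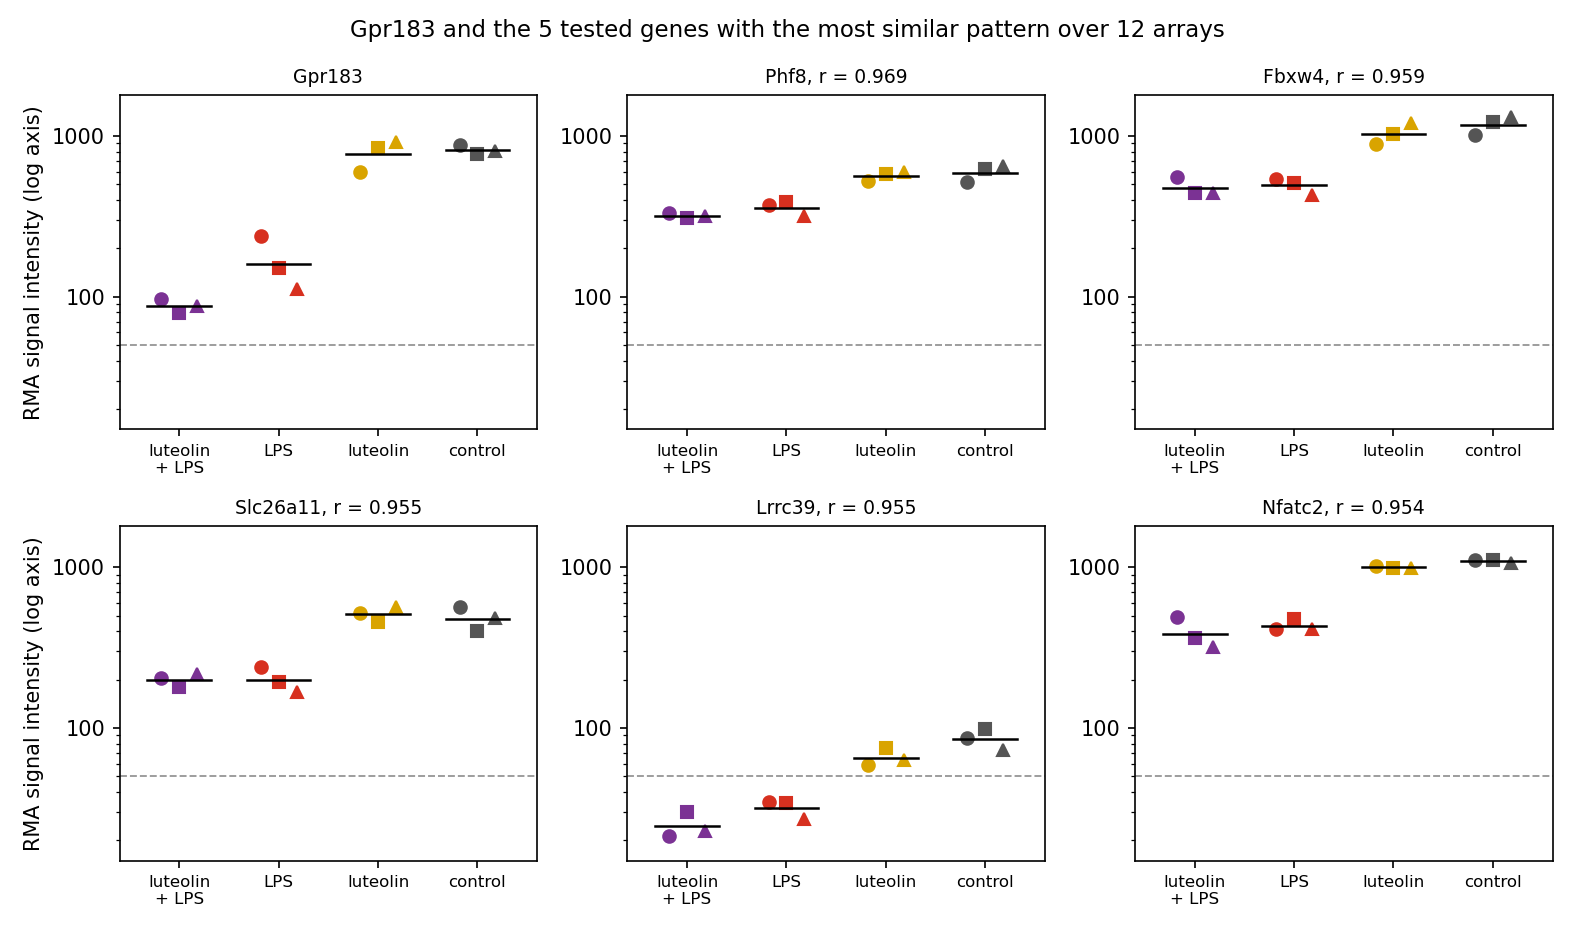
RMA signal intensity (log axis) of Gpr183 and of the 5 genes with the highest Pearson r to it over 12 arrays, by condition. Symbols are replicates 1 (circle), 2 (square) and 3 (triangle), the bar is the geometric mean and the dashed line the minimum of 50. All 6 genes are low on arrays with LPS, where Lrrc39 is under 50 throughout, with Gpr183 at 79.5 to 240.5 there and 594.4 to 913.6 without LPS.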

How the data were processed

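Gene expression was measured in BV-2 microglia on Affymetrix mouse genome expression arrays. The authors summarised the probes with the RMA algorithm in Expression Console 1.0, which corrects the background and sets all arrays to a common distribution, so that these values cannot show a shift common to most genes. The deposited values are linear intensities, 1 for each of 45101 probe sets and each array. Their number and the signal over background limit the precision. The labels name a kit for sense target labelling, whereas the methods describe labelled cRNA.

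Intensities were turned into log2 values. A single gene was named by 34958 probe sets, several by 932 and none here by 9211. Each of 18194 genes was represented by its brightest probe set (mean log2 value). The 12071 genes with a geometric mean of at least 50 in 1 or more conditions were tested, and 6123 were left out. Limma 3.58.1 (R 4.3.3) fitted the means of the 4 conditions on all 12 arrays. P-values received a Benjamini-Hochberg adjustment over these genes, and 0.05 was the threshold. The fit was tested on simulated data. The methods' test on single probes needs the scans and was not run. The members and lists were chosen with earlier results of these data known. The text names the members, the 5 genes most like Gpr183, microglia markers, and in each list the genes past the threshold or, beyond 4, the 4 with the largest difference, and the 2 largest where none passed. Cxcl10, Gpr34, Cxcr4, P2ry13, Smo, Rgs10 and Mx1, and Insig2 in LPS against control, were named after their values were seen.

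The study made 3 independent stimulation experiments, and the titles number the arrays of each condition 1 to 3. Deviations from the group means correlated in all 18 pairs of same-numbered arrays (r from 0.10 to 0.59, median 0.42), so the numbers were taken to pair the arrays. Different numbers had a median of -0.30. This is no separate support, since the deviations cancel within each group. The block was a fixed term, or a random one with a consensus correlation of 0.263. Promoters were taken from RefSeq. Plots were made in matplotlib 3.10.9 under Python 3.11.15.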

Additional observations from a re-analysis of the deposited data

Results flagged for a closer look

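Luteolin's effect with and without LPS ran in opposite directions in all 3 replicates for 3 of the genes screened. Screened were Gpr183, Hsd3b7 and the genes of the 33 comparisons that the naming rule gave. The share of all genes with this pattern is not given, so the 3 are not read as more than other genes would show. None of the 3 passed the test of the interaction itself (limma adjusted p = 0.999 for each), and no explanation was tested. Hmgcs1 was higher in luteolin + LPS than in LPS arrays by a log2 of 0.32, 0.27 and 0.21 in replicates 1, 2 and 3, and in luteolin against control arrays it differed by -0.06, -0.55 and -0.51, an interaction of 0.64. Arrb1 differed by 0.22, 0.29 and 0.77 in luteolin + LPS against LPS arrays and by -0.16, -0.11 and -0.06 in luteolin against control arrays, an interaction of 0.54. Rgs18 differed by -0.17, -2.26 and -0.89 in luteolin + LPS against LPS arrays and by 0.23, 0.39 and 0.15 in luteolin against control arrays, an interaction of -1.37, with 3 of 12 arrays under the minimum signal of 50 and -0.89 with these set to 50. Gpr183 and Hsd3b7 did not show this pattern, and Ch25h and Cyp7b1 were under the minimum on all arrays.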

How the results depend on the processing

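The log2 difference of Gpr183 was negative in LPS against control and in luteolin + LPS against luteolin under all 19 alternatives. In luteolin + LPS against LPS it was negative under 18, the dimmer probe set not being counted there. That probe set still enters the mean of the gene's probe sets, which is 1 of the 18. Most of these alternatives could not have changed the sign, so the counts say little. The block does not alter the differences, and no value of the brighter probe set lay under 50. Groups without overlap also keep their order when 1 array is left out. Leaving out 1 array at a time gave -2.65 to -2.10, -1.12 to -0.57 and -3.33 to -3.02, and for the interaction -1.04 to -0.49. The mean of the gene's probe sets gave -1.83 in LPS against control, -0.54 in luteolin + LPS against LPS, -2.32 in luteolin + LPS against luteolin and -0.49 for the interaction. The dimmer probe set, under 50 on all arrays with LPS, gave -1.30, -0.21 in luteolin + LPS against LPS, -1.50 and, for the interaction, -0.20, computed on values without an order, so that -1.30 and -1.50 stand only for the bound of at least 1.01 and the other 2 are not read. In luteolin against control leaving out 1 array gave -0.21 to 0.10.

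For Hsd3b7, leaving out 1 array gave -0.39 to 0.12 in LPS against control, -0.04 to 0.27 in luteolin against control, -0.59 to 0.012 in luteolin + LPS against LPS, -0.84 to -0.32 in luteolin + LPS against luteolin and -0.73 to -0.12 for the interaction. Ch25h and Cyp7b1 have no values here, being under the minimum on every array.

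Of 131 genes of the lists, 44 passed in LPS against control with the replicate block and 45 with a random block, 5 and 3 in luteolin + LPS against LPS, and 17 and 17 in luteolin + LPS against luteolin, where 3 passed with only the groups compared. Without 1 array the counts ranged over 10 to 39, 0 to 7 and 0 to 21. Over all genes the block called 1338 against 505, 34 against 0, 578 against 61 and 554 against 218 in LPS against control, luteolin against control, luteolin + LPS against LPS and luteolin + LPS against luteolin. Of the 33 comparisons that the naming rule gave, the block changed the calls of Insig2, Lipa and S1pr1 in luteolin + LPS against LPS and no other, beside the further genes that the report names as past the threshold with the block. The cause of these shifts was not tested. Centring the arrays moved the median by at most 0.04. With 3 arrays per condition and no scans, background correction could not be varied, and signals under 50 have no order.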
